A study of Mus musculus with 4 samples.

Results

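Early S phase cells were described among thymic invariant natural killer T (iNKT) cells, T cells whose nearly fixed receptor recognises lipids presented by CD1d. A cell was counted as early S when at least 5 of 8 S phase genes (Hells, Cdc6, Ung, Mcm3, Mcm5, Uhrf1, Gins2 and Dut) and fewer than 3 of 8 G2/M genes (Ccnb2, Cenpa, Birc5, Cdc20, Ube2c, Cdca8, Ccnb1 and Nusap1) had at least 1 unique molecular identifier (UMI). This rule chose 1308 of the 19647 cells kept after quality limits. C57BL/6 replicates 1 and 2 gave 528 and 216 early S cells, and Hivep3-/- replicates 1 and 2 gave 253 and 311. The members were chosen by measured transcripts, so their levels of these 16 genes are a description and were not tested.

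The libraries came from untreated mice between 8 and 9 weeks old, labelled wildtype C57BL/6 or Hivep3-/-, with 2 mice per genotype and 1 library per mouse. The Hivep3-/- mice had a backcrossed C57BL/6 background, and the sources used here do not give which part of the gene it lacks. Thymocytes binding a PBS57-loaded CD1d tetramer were sorted so that CD44low and CD44high cells were present in equal numbers, a gate that partly fixes the shares of cells below. Transcripts were counted at their 5' ends by droplet sequencing.

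Before a cell copies its DNA, the MCM helicase is loaded onto origins with the help of CDC6, and it is switched on when CDC45 and the GINS complex join it. Many genes of this machinery, of nucleotide synthesis and of chromatin copying are transcribed at the border of G1 and S under E2F factors, whereas cyclin B and the mitotic genes follow in G2 and M. Dividing iNKT cells are found mainly among young thymic precursors, before the cells settle into the iNKT1, iNKT2 and iNKT17 subsets.

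Promoter stretches of the S phase genes are shown because these genes define the members and are classical E2F targets. An E2F core, searched on either strand as the letters TTCCCGC, as the variant TTGGCGC, as the variant TTCGCGC and as the variant TTGCCGC, was found within 250 bases before the RefSeq start (GRCm38.p6) in 4 of the 7 S phase genes that had a sequence. Capitals mark the matches, and bases in GENCODE vM21 exons were left out except for Hells, whose matches lie in an annotated exon and of which only 25 bases are given. All of them are on the plus strand. Uhrf1 has 2 starts, and in Mcm5 a TTCGCGC match overlaps a match on the opposite strand.

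Hells, chr19:38930929-38930953: TTCCCGCgaaagagaagcGCGCGAA
Cdc6, chr11:98907982-98908049: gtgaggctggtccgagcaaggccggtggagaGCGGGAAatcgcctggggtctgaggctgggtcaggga
Mcm5, chr8:75109300-75109396: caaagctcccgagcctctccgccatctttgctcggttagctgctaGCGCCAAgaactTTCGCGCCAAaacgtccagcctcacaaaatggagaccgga
Uhrf1 start 1, chr17:56303244-56303320: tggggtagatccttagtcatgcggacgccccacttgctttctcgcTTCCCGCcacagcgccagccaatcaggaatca
Uhrf1 start 2, chr17:56304084-56304165: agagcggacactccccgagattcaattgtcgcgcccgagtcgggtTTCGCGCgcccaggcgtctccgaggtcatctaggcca

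The share of genes with the core was 57.1% in the S phase genes, 41.4% in 29 replication genes that the rule did not use, 12.5% in the 8 G2/M genes and 9.01% in all 27025 genes with a promoter sequence. The CHR element TTTGAA, known from promoters of mitotic genes, was found in 0 of the 7 S phase genes and in 3 of the 8 G2/M genes (37.5%), against 18.3% of all genes. A match of letters shows no binding.

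The libraries held 31381738 to 48291764 UMIs in 4243 to 8374 barcodes. Early S cells were deep: the median cell held 12676 and 14794 UMIs in C57BL/6 and 12520 and 12011 in Hivep3-/-, against 4596 to 6833 in all kept cells. The upper limit of 4100 genes per cell left out 180 further cells that met the rule on genes, 18 and 40 in C57BL/6 and 91 and 31 in Hivep3-/-. Doublet scoring marked 10 cells in all and had not worked, and 18 to 43 barcodes were shared by each pair of libraries. C57BL/6 replicate 1 was the library with Xist and without Y-linked transcripts, and the other 3 were the reverse. In early S cells the 6 T cell markers summed to 3437 to 4556 CPM (UMIs per 1e+06 UMIs of the cells summed). The 6 double positive thymocyte markers summed to 4.58 and 3.85 CPM in C57BL/6 and 34.7 and 8.12 CPM in Hivep3-/-, mostly Cd8a (27.7 CPM in Hivep3-/- replicate 1) and Cd8b1, with Rag1, Rag2 and Ptcra at 0 UMIs in every library. The 6 B cell markers summed to 39.5 and 23.1 CPM in C57BL/6 and 9.22 and 8.90 CPM in Hivep3-/-, mostly Cd74 in C57BL/6 (37.8 and 22.2 CPM), which was called lower in Hivep3-/- in the gene test below. The 6 myeloid markers summed to 121 to 137 CPM, nearly all of it Cst3, and the 5 red cell markers were at 0. The part of these cells in the results was not tested.

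Within the members, Dut, Mcm3 and Mcm5 were almost always present. Dut, which removes dUTP from the nucleotide pool, had a UMI in 98.0% to 99.2% of early S cells of a library, and Mcm3 in 97.4% to 99.1%. Cdc6 was the least often detected, in 49.6% and 40.7% of C57BL/6 and 26.5% and 34.4% of Hivep3-/- early S cells, against at most 0.115% of non-dividing cells. All 8 S phase genes were detected in 21.8% and 18.1% of C57BL/6 and in 10.3% and 14.1% of Hivep3-/- early S cells. None of the 8 G2/M genes was detected in 47.2% and 50.5% of C57BL/6 and in 61.3% and 55.9% of Hivep3-/- early S cells. These shares rest on genes of the rule and got no test.

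At the edges of the rule, 418 members had exactly 5 S phase genes, and 526 cells just outside had 4 with the same limit on G2/M genes. Summed over 36 replication genes that the rule did not use, the former had 2560 to 2950 CPM per library and the latter 2095 to 2416. On the other edge, 196 members had 2 G2/M genes and 139 cells just outside had 3, with 3917 to 5488 and 4373 to 5834 CPM of the same replication genes.

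Early S cells were next compared by genes that the rule did not use. They were set beside 800 G2/M cells (at least 5 of the G2/M genes) and 11926 non-dividing cells (at most 1 S phase gene and none of the G2/M genes), as a description without a test. The 36 replication genes summed to 3748, 3481, 3770 and 3968 CPM in early S cells of C57BL/6 replicates 1 and 2 and Hivep3-/- replicates 1 and 2. In non-dividing cells the same sums were 714, 682, 794 and 739 CPM. Of the 35 replication genes with at least 10 CPM, 35 were higher in early S than in non-dividing cells in all 4 libraries, with a median log2 ratio of 2.53, against 3035 of 7550 genes and a median of 0.05 over all genes of that level. Set against G2/M cells, which had 2345, 2422, 3094 and 3424 CPM of the replication genes, early S cells were less distinct. There, 18 of 36 replication genes were higher in early S cells in all 4 libraries and 2 lower (median log2 ratio 0.29), and 3 of 17 replication-coupled chromatin genes were higher and 11 lower (-1.16). Over all genes of at least 10 CPM, 1555 of 7384 were higher and 1836 lower (-0.01). The 15 G2/M genes that the rule did not use were all lower in early S than in G2/M cells in the 4 libraries, with a median log2 ratio of -3.95. The 4 of them with at least 10 CPM in early S or non-dividing cells were higher in early S than in non-dividing cells in all 4 libraries (2.94).

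**Figure D1:**
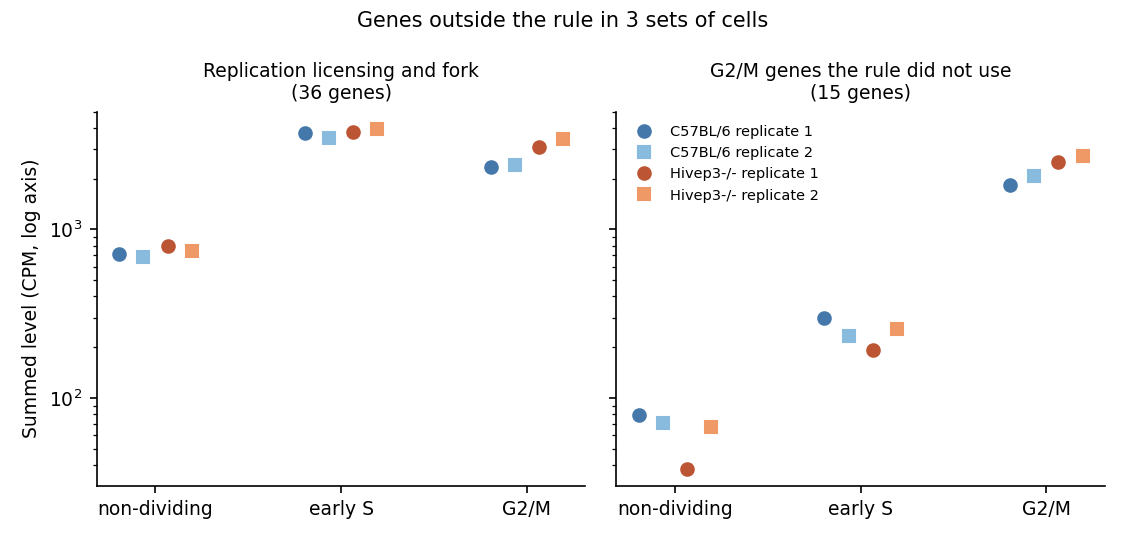
Summed level in CPM (log axis) of 36 replication genes and of 15 G2/M genes that did not enter the rule, in non-dividing, early S and G2/M cells, 1 point per library. Replication genes were at 3481 to 3968 CPM in early S cells, 2345 to 3424 CPM in G2/M cells and 682 to 794 CPM in non-dividing cells, and the 15 G2/M genes were at 192 to 299 CPM in early S cells against 1823 to 2719 CPM in G2/M cells.

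Among genes of at least 50 CPM that the rule did not use, the ratio of early S to non-dividing cells was largest for Pclaf, which codes for a partner of PCNA at the replication fork. Pclaf had 224, 128, 104 and 187 CPM in early S cells and 4.40, 1.26, 0.347 and 1.13 CPM in non-dividing cells, in the library order used above. The log2 ratio (1 CPM added to each side) was 5.38 to 6.46. Next came Rrm2, the ribonucleotide reductase subunit that sets dNTP supply (4.07 to 4.93), and the DNA ligase Lig1 (3.94 to 4.17). Others among the 10 highest were Stmn1, Cdca7, Timeless, Asf1b, Tcf19 and Mcm2, the last with 205, 181, 283 and 208 CPM in early S cells. Nucleotide supply genes were higher in early S than in non-dividing cells in all 4 libraries for 18 of 18, and growth and ribosome biogenesis genes for 16 of 18 (median log2 ratio 0.89). Not all of these genes set early S apart from G2/M cells. Rrm2 (log2 ratio of early S to G2/M cells -3.21 to -0.80) and Asf1b (-1.72 to -0.66) were lower in early S cells in all 4 libraries, Lig1 was mixed (-0.23 to 0.71), and Mcm2 (1.05 to 1.5), Timeless (0.85 to 1.18) and Cdca7 (0.78 to 1.43) were higher. Of the 18 nucleotide supply genes, 8 were higher than in G2/M cells in all 4 libraries and 4 (Tyms, Tk1, Rrm1 and Rrm2) lower. Over all genes of at least 10 CPM these were 1555 and 1836 of 7384. Among the genes lowest in early S relative to non-dividing cells were the NK receptor genes Klrb1c (-3.87 to -2.33) and Klrc1 (-3.31 to -2.13), both named after their values were seen.

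Early S cells made up 7.30% and 5.92% of kept cells in C57BL/6 and 5.50% and 7.46% in Hivep3-/-. The ranges overlapped, and the means were 6.61% ± 0.980 and 6.48% ± 1.39 (SD, n = 2). Exact permutation over the 4 libraries (two-sided) gave p = 1, in a design that cannot reach below 0.33. The 95% exact binomial intervals, which cover counting error only, were 6.71% to 7.93%, 5.17% to 6.73%, 4.86% to 6.20% and 6.68% to 8.30%. The sign of the difference of -0.13 percentage points was not stable, being 0.57 without C57BL/6 replicate 1 and 0.85 without Hivep3-/- replicate 1. With every cell thinned to 4000 UMIs the shares were 6.06% and 3.35% in C57BL/6 and 2.50% and 3.32% in Hivep3-/- (exact permutation p = 0.33), after 3007, 902, 518 and 517 kept cells below that depth were left out.

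Beside them, G2/M cells were 5.37% and 4.88% of C57BL/6 and 1.39% and 4.08% of Hivep3-/- cells. There were 1.36 and 1.21 early S cells per G2/M cell in C57BL/6 and 3.95 and 1.83 in Hivep3-/-. Both Hivep3-/- libraries were above both C57BL/6 libraries in this ratio (exact permutation p = 0.33, the smallest that 2 against 2 libraries allow).

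**Figure D2:**
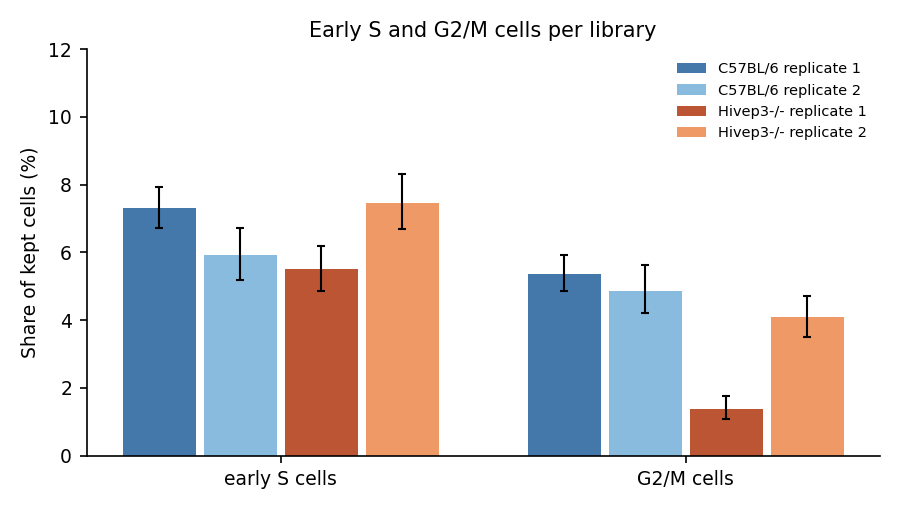
Share of kept cells (%) called early S or G2/M in each library, with bars from 0 and lines for 95% exact binomial intervals. The genotypes overlap for early S cells (5.50% to 7.46%), and for G2/M cells both Hivep3-/- libraries (1.39% and 4.08%) lie under both C57BL/6 libraries (4.88% and 5.37%).

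To see which iNKT markers the early S cells carried, each cell was thinned to 4000 UMIs and given to the list with most of its 8 markers detected, if at least 2. These are marker counts and not cell types, since genes of the lists differed between genotypes themselves. The stage 0 list (Cd24a, Itm2a, Cldn10, Lef1, Sox4, Myb, Ikzf2 and Tox) led in 30.1% and 21.4% of C57BL/6 and in 45.5% and 51.1% of Hivep3-/- early S cells. Cd24a, the defining surface marker of stage 0, was nearly absent, with 1.68 and 0.321 CPM in C57BL/6 and 6.36 and 14.1 CPM in Hivep3-/- early S cells. Of the 8 genes of this list, 5 (Ikzf2, Cldn10, Itm2a, Sox4 and Myb) were higher in Hivep3-/- early S cells in the gene test below, against 1.31% of all genes. As gene lists were chosen with earlier results of these data known, this share is a description. Without Hivep3-/- replicate 1 the calls of Itm2a, Sox4 and Myb were lost, without Hivep3-/- replicate 2 those of Itm2a, Cldn10, Sox4 and Myb, and without C57BL/6 replicate 2 that of Myb. The call of Itm2a was also lost with at least 6 S phase genes required. Of the other lists, 2 of 8 iNKT1 markers (Cd7 and Xcl1) and 1 of 6 T cell markers (Cd2) were called higher, and 1 of 8 iNKT2 markers (Il17rb) lower. The calls of Cd7 and Xcl1 were lost without either Hivep3-/- library. That of Cd7 was also lost without cells led by the iNKT1 list, and that of Xcl1 in cells chosen after thinning to 4000 UMIs.

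The iNKT2 list led in 15.1% and 17.2% of C57BL/6 and in 5.93% and 3.56% of Hivep3-/- early S cells. Its 8 markers summed to 472 and 465 CPM in C57BL/6 and 510 and 466 CPM in Hivep3-/- early S cells, so their summed level was not lower. Which list leads also depends on the other lists. The stage 0 markers summed to 755 and 610 against 1580 and 1625 CPM, and the iNKT1 markers to 441 and 1061 against 2320 and 1858 CPM. The iNKT1 list led in 12.6% and 30.2% of C57BL/6 and in 36.8% and 32.4% of Hivep3-/- early S cells, so C57BL/6 replicate 1 stood apart from the other 3 libraries. In non-dividing cells the iNKT1 list led in 47.9% of cells of C57BL/6 replicate 1 and in 79.2% to 82.9% of the other libraries. Cells with fewer than 2 markers of any list were 29.5% and 17.2% of C57BL/6 and 3.56% and 3.56% of Hivep3-/- early S cells. The iNKT17 list led in 0.575% and 2.79% of C57BL/6 early S cells and in 0 of 253 (up to 1.45% by the exact binomial interval) and 1.62% of Hivep3-/- early S cells, and its difference changed sign, to 0.23 percentage points, without C57BL/6 replicate 2. The means differed by 22.6 percentage points for the stage 0 list, -11.4 for the iNKT2 list and 13.1 for the iNKT1 list, each with an exact permutation p of 0.33. The iNKT1 difference was 4.33 percentage points without C57BL/6 replicate 1 and 21.9 without C57BL/6 replicate 2.

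**Figure D3:**
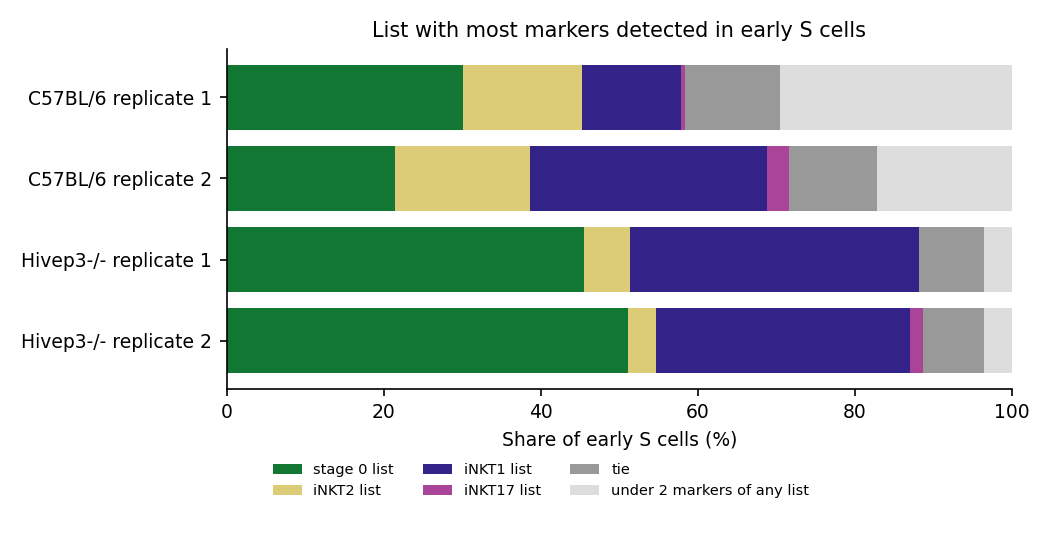
Share of early S cells (%) by the marker list with most markers detected after thinning to 4000 UMIs, 1 bar per library. The stage 0 list takes 45.5% and 51.1% in Hivep3-/- against 30.1% and 21.4% in C57BL/6, and the pale segment of cells with fewer than 2 markers of any list shrinks from 29.5% and 17.2% to 3.56% in each Hivep3-/- library.

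UMIs were then summed over the early S cells of each library and compared between genotypes in edgeR (quasi-likelihood test), calling genes at a Benjamini-Hochberg adjusted p under 0.05. Levels in this comparison are CPM on TMM-scaled sums, and log2 differences are Hivep3-/- over C57BL/6. Hivep3 (chr4:119733784-120138045, mm10), the targeted gene, had 264 and 143 UMIs in C57BL/6 and 549 and 376 UMIs in Hivep3-/- early S cells. These were 42.2 and 48.6 CPM against 163 and 96.3 CPM, a difference of 1.52 (SE 0.25, adjusted p 0.0311). Its call was lost without Hivep3-/- replicate 1 and with at least 6 S phase genes required. Reads of 5' ends can come from a disrupted transcript as well as an intact one, so this level is no check of the labels.

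With 2 mice per genotype, p-values measure the spread between those mice only, and fewer cells of a kind and less RNA per cell cannot be told apart in such sums. Outside the rule, 222 of 9710 genes were called (2.29%), 127 higher (1.31%) and 95 lower (0.978%) in Hivep3-/- early S cells. Leaving out C57BL/6 replicate 2 gave 492 calls, Hivep3-/- replicate 1 gave 41 and Hivep3-/- replicate 2 gave 62. The libraries of the genotypes did not overlap for 48.5% of genes. The same test called 205 of 9059 genes in G2/M cells (2.26%, of all genes 1.1% higher and 1.16% lower) and 31 of 11277 in non-dividing cells (0.275%, 0.186% higher and 0.0887% lower) of the same mice.

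Of 36 replication genes, 36 were tested and 0 were called, with a median log2 difference of -0.06 against 0.03 over all genes tested. With 2.29% of all genes called, 0 of 36 is near the share over all genes. Cells of both genotypes were chosen by related S phase genes, which limits what this test of replication genes can show. Mcm6, a subunit of the helicase, had 465 and 446 CPM in C57BL/6 and 543 and 527 CPM in Hivep3-/- early S cells (log2 0.23, SE 0.11, adjusted p 0.35). Pcna, the sliding clamp of DNA polymerases, had 272 and 286 CPM against 183 and 260 CPM (-0.33, SE 0.18, adjusted p 0.386). The lists of 18 nucleotide supply, 17 replication-coupled chromatin and 18 growth genes, 23 tested G1/S regulators and 11 tested G2/M genes also held 0 calls, at medians of -0.24, -0.09, -0.29, -0.20 and -0.36. At an unadjusted p under 0.05 edgeR had 2 of the replication genes and, in the order of these lists, 5, 3, 7, 4 and 2 genes. Over all genes tested, those of the rule included, it had 1682 of 9724. At the adjusted threshold DESeq2 called 0 replication genes and 1, 0, 0, 1 and 0 genes of these lists, against 280 of 9710 genes outside the rule. Closest to the threshold was Ccne1, the cyclin E1 that activates CDK2 at S phase entry, with 58.4 and 48.9 CPM in C57BL/6 and 22.2 and 30.5 CPM in Hivep3-/- early S cells (-1.03, SE 0.20, adjusted p 0.0541), and called under 6 of 15 alternatives.

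Among called genes of at least 20 CPM on average, the largest rises were led by Tnni1, the troponin I of slow muscle fibres, with 11.8 and 7.47 CPM in C57BL/6 and 142 and 137 CPM in Hivep3-/- early S cells (log2 3.78, SE 0.21, adjusted p 0.000428). Klrb1a, an NK receptor gene, had 4.64 and 5.10 CPM against 61.7 and 71.0 CPM (3.78, SE 0.21, adjusted p 0.000428). Htra3, a secreted serine protease, rose from 3.36 and 4.42 CPM to 38.6 and 40.7 CPM (3.39, SE 0.24, adjusted p 0.0015). For these 3 genes the lowest Hivep3-/- library stood far above the highest C57BL/6 library.
Fcer1g, the shared signalling chain of Fc receptors, had 38.4 and 74.7 CPM in C57BL/6 and 376 and 368 CPM in Hivep3-/- (2.75, SE 0.28, adjusted p 0.0052). The chemokine gene Ccl5 was uneven within genotypes, with 32.3 and 82.5 CPM against 544 and 241 CPM (2.82, SE 0.50, adjusted p 0.0376). Further rises were Ifitm2 (3.09), Tnfsf8 (2.80), Epcam (2.66) and Tsc22d1 (2.64), where Tnfsf8 is the ligand of CD30 and Epcam an adhesion molecule. Without Hivep3-/- replicate 1, and likewise without Hivep3-/- replicate 2, Ccl5 and Ifitm2 lost their calls. Ccl5 also lost its call when the highest doublet scores were removed, without cells led by the iNKT1 list, and in cells led by the stage 0 list. DESeq2 did not call Ifitm2.

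Under the same limit on level, the largest falls were led by Ccr9, the receptor for the thymic and gut chemokine CCL25. Ccr9 had 174 and 145 CPM in C57BL/6 and 9.79 and 6.41 CPM in Hivep3-/- early S cells (-4.31, SE 0.23, adjusted p 0.000428), a 19.9-fold difference. Lmo4, a LIM-domain adaptor of transcription complexes, had 685 and 548 CPM against 62.9 and 57.1 CPM (-3.36, SE 0.16, adjusted p 0.000428). Drosha, the nuclease that starts microRNA processing, had 304 and 250 CPM against 34.1 and 38.9 CPM (-2.92, SE 0.16, adjusted p 0.000428). For Ccr9, Lmo4 and Drosha the libraries within a genotype were close and the genotypes lay far apart.
Il13, a type 2 cytokine, had 165 and 76.8 CPM against 8.60 and 4.36 CPM (-4.26, SE 0.45, adjusted p 0.0066), and was not called without Hivep3-/- replicate 2 (adjusted p 0.054). Hist1h2ag, a histone H2A gene of a family of nearly identical copies, had 68.1 and 53.7 CPM against 9.79 and 7.94 CPM (-2.79, SE 0.22, adjusted p 0.0017). The other falls were Myo6 (-3.67), Adh1 (-3.21), Ckb (-2.32), Lgals3 (-2.28) and Bcl2a1d (-2.28), which code for a myosin, an alcohol dehydrogenase, brain-type creatine kinase, galectin-3 and an anti-apoptotic BCL2 relative. The call of Myo6 was lost without either Hivep3-/- library.

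**Figure D4:**
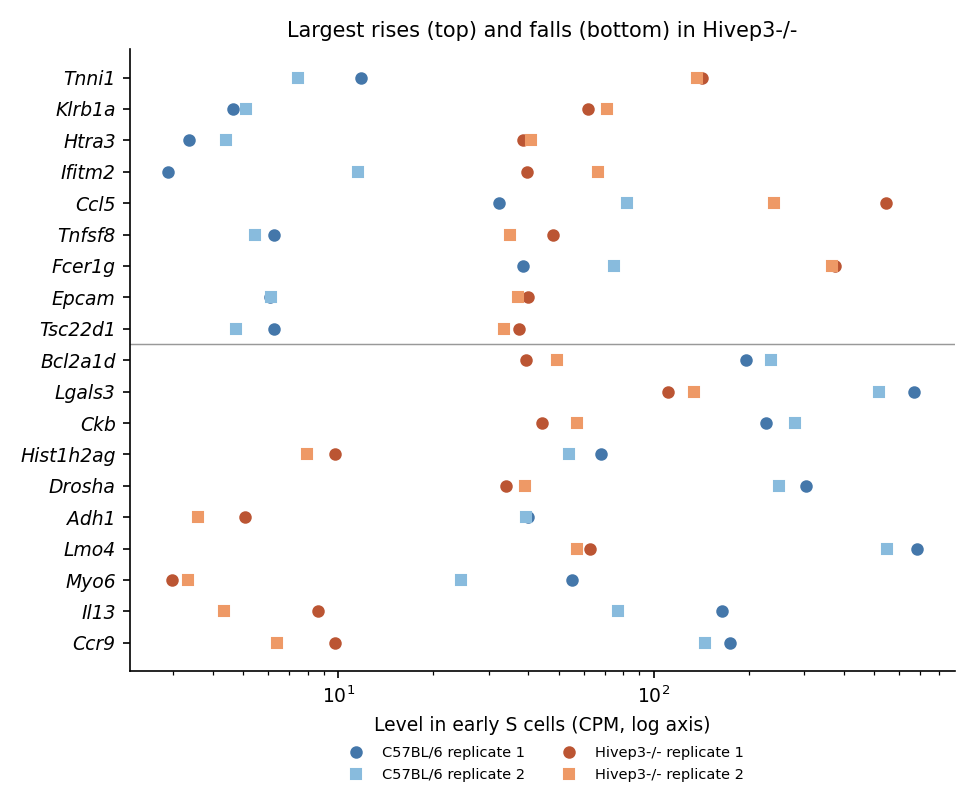
Level in early S cells in TMM-scaled CPM (log axis) of 9 of the 10 largest rises and the 10 largest falls among called genes of at least 20 CPM, 1 point per library. No gene overlaps between genotypes, which was a condition of the choice. Ccr9 went from 174 and 145 CPM to 9.79 and 6.41 CPM.

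In G2/M cells of the same mice, 10 of the 10 rises and 9 of the 10 falls were called in the same direction, Hist1h2ag being the exception (-0.18). In non-dividing cells 3 of the 10 rises (Klrb1a, Ccl5 and Tnfsf8) and 3 of the 10 falls (Lmo4, Drosha and Ckb) were called, against 31 of 11277 genes. The sign was the same there for 10 of 10 rises (log2 0.40 to 3.46) and 10 of 10 falls (-3.44 to -0.50). Because marker lists were unevenly spread over genotypes, the test was also run within early S cells of a single list, a choice made after the data were seen. The rises and falls were chosen by their calls in the early S cells that hold these subsets, so their counts are no independent support. In cells led by the stage 0 list 8 of 9 tested rises and 10 of 10 falls were called, against 319 of 8455 genes outside the rule. In cells led by the iNKT1 list 6 of 10 rises and 7 of 8 tested falls were called, against 69 of 7113 genes. Ccl5 was not called in the former (0.14, adjusted p 0.944), and Epcam, Htra3, Tsc22d1 and Lgals3 were among those not called in the latter.

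The gene lists of this and the following paragraphs were chosen with earlier results of these data known. Their shares of calls are therefore a description and no independent support. Among lineage factors, 3 of 24 rose and 3 fell, 25% against 2.29% of all genes. Zbtb16, which codes for PLZF, the factor that directs innate T cells, fell from 243 and 187 CPM to 121 and 122 CPM (-0.83, SE 0.16, adjusted p 0.0456), and lost its call without C57BL/6 replicate 1 or either Hivep3-/- library. That call was also lost with no upper limit on genes per cell and in cells led by the iNKT1 list. Id2, an inhibitor of E proteins, fell from 786 and 936 CPM to 414 and 395 CPM (-1.09, SE 0.13, adjusted p 0.0112). Ikzf2, coding for Helios, rose from 64.1 and 53.7 CPM to 236 and 280 CPM (2.12, SE 0.16, adjusted p 0.0016), with Sox4 (1.27) and Myb (0.96), 2 factors of early thymocytes. The calls of Id2, Sox4 and Myb were lost without either Hivep3-/- library, and that of Myb also without C57BL/6 replicate 2. Gata3 (-0.21) and Tbx21 (-0.08), coding for the subset factors GATA3 and T-bet, did not pass, and Egr2, a target of T cell receptor signals, was uneven at 102 and 26.9 CPM in Hivep3-/- against 18.2 and 11.9 CPM in C57BL/6 (2.04, SE 0.57, adjusted p 0.126). Egr2 was called under 6 of 14 alternatives.

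Among T cell receptor chains and signalling genes, 6 of 23 rose and 0 fell (26.1%). Crtam, an adhesion receptor of activated T cells, went from 1.76 and 2.04 CPM (11 and 6 UMIs) to 29.1 and 31.3 CPM (4.00, SE 0.28, adjusted p 0.0014). Lat2, an adaptor, rose from 7.36 and 7.47 to 45.4 and 43.6 CPM (2.58, SE 0.20, adjusted p 0.0016), and Ubash3b, a phosphatase that dampens receptor signals, from 36.8 and 35.0 to 109 and 103 CPM (1.56, SE 0.14, adjusted p 0.003). Cd69 (1.17), Slamf6 (1.0) and Cd247 (0.83) also rose, each losing its call without either Hivep3-/- library, and Slamf6 also without C57BL/6 replicate 1. Cd3d, a chain of the receptor complex, had 1070 and 1044 CPM in C57BL/6 and 1093 and 1101 CPM in Hivep3-/- early S cells (0.05, SE 0.11, adjusted p 0.854).

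Cytokine and cytokine receptor genes held 3 rises and 4 falls among 14 tested (50.0%). Il4, the type 2 cytokine of iNKT2 cells, fell from 136 and 124 CPM to 34.4 and 25.6 CPM (-2.12, SE 0.18, adjusted p 0.0022). Icos, a costimulatory receptor, fell from 528 and 452 CPM to 109 and 110 CPM (-2.17, SE 0.13, adjusted p 0.000757), a 4.49-fold difference that was called under every alternative tried. Il17rb, the receptor for IL-25, fell from 21.3 and 29.9 to 6.23 and 7.94 CPM (-1.82), and Il13 is given above. Il4ra (1.95), Il21r (1.40) and Il2 rose. Il2 had 1 and 1 UMIs in C57BL/6 and 20 and 17 UMIs in Hivep3-/- early S cells, too few for its fold to be read closely. Il2rb, the β chain of the IL-2 and IL-15 receptors, had 142 and 240 CPM against 485 and 378 CPM and did not pass (1.19, SE 0.25, adjusted p 0.0616), though it was called under 9 of 15 alternatives. The calls of Il17rb, Il4ra and Il2 were lost without either Hivep3-/- library, that of Il21r without Hivep3-/- replicate 1, and those of Il4ra, Il21r and Il2 without C57BL/6 replicate 1.

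Of 13 tested chemokine receptor and homing genes, 2 rose and 2 fell (30.8%). Ccr8, a chemokine receptor gene, rose from 56.1 and 45.9 CPM to 109 and 90.2 CPM (0.96, SE 0.17, adjusted p 0.0384), and lost its call without C57BL/6 replicate 2 or either Hivep3-/- library. That call was also lost in cells chosen after thinning to 4000 UMIs and with at least 6 S phase genes required. It was lost too without cells led by the iNKT1 list, in those cells alone, and in cells led by the stage 0 list. Ccr9 fell, as given above. Cxcr6, the receptor for CXCL16, fell from 227 and 253 CPM to 151 and 148 CPM (-0.68, SE 0.13, adjusted p 0.0411), and lost its call without any 1 of the 4 libraries.

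Survival genes moved in different directions, with 1 rise and 2 falls among 10 tested (30%). Bcl2 rose from 56.0 and 54.7 CPM to 143 and 94.6 CPM (1.10, SE 0.21, adjusted p 0.0464), a call lost without C57BL/6 replicate 1 or Hivep3-/- replicate 1. That call was also lost with at least 6 S phase genes required and in cells led by the stage 0 list. Bcl2a1d fell from 197 and 236 CPM to 39.5 and 49.5 CPM, and its near copy Bcl2a1b from 180 and 262 CPM to 60.2 and 63.3 CPM (-1.83, SE 0.20, adjusted p 0.0067), the latter not called without either Hivep3-/- library. Reads of Bcl2a1 copies can be split between them by the counting. Of 7 microRNA processing genes, Drosha was the 1 called (14.3%). Of 16 DNA damage and p53 target genes, Phlda3 was the 1 called (6.25%), falling from 29.8 and 29.2 to 14.5 and 13.6 CPM (-1.07), a call lost without C57BL/6 replicate 1 or either Hivep3-/- library. DESeq2 did not call Phlda3, and it was not called without cells led by the iNKT1 list or in those cells alone. Of 6 genes of sex, 4 were tested and edgeR and DESeq2 each called 0, with 0 at an unadjusted p under 0.05. C57BL/6 replicate 1 had Xist and C57BL/6 replicate 2 had Y-linked transcripts, so these genes differed within C57BL/6, which limits this test. Both Hivep3-/- libraries had Y-linked transcripts, so sex was unevenly spread over the genotypes. The part of sex in the other genotype differences was not tested.

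Whether the genotype difference was particular to early S cells was tested by the interaction of genotype and phase, with library as a block. CPM in the next 2 paragraphs are scaled over the sums of both phases together. Against G2/M cells, 18 of 9937 genes had a genotype difference that changed with phase (0.181%), 6 higher (0.0604%) and 12 lower (0.121%) in early S cells. With DESeq2 size factors the split was 1 higher and 5 lower, and DESeq2 itself called 2. Leaving out Hivep3-/- replicate 1 gave 3 calls and Hivep3-/- replicate 2 gave 30, while leaving out C57BL/6 replicate 1 gave 47 and C57BL/6 replicate 2 gave 92. Hivep3-/- replicate 1 had only 64 G2/M cells.

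Of the 5 genes of smallest p, 4 were histone genes, with a more negative genotype difference in early S than in G2/M cells. They were picked by p, and of the 17 genes of the fixed chromatin list Hist1h2ae was the 1 called, while its other histone genes Hist1h1b (-1.96, adjusted p 0.061), Hist1h1a (-1.68), Hist1h2ap (-0.86) and Hist1h1e (-0.26) did not pass. In early S cells alone Hist1h2ag and Hist1h2bj were called lower, and Hist1h2ae (adjusted p 0.0898) and Hist1h3b (adjusted p 0.112) were not. Hist1h2ag had 68.2 and 53.7 CPM in C57BL/6 and 9.80 and 7.95 CPM in Hivep3-/- early S cells, and 214 and 211 against 152 and 218 CPM in G2/M cells (difference of the log2 differences -2.62, SE 0.22, adjusted p 2.7e-05). Hist1h2ae had 124 and 47.6 against 30.6 and 25.1 CPM in early S cells, and 842 and 567 against 710 and 723 CPM in G2/M cells (-1.61, SE 0.21, adjusted p 0.0026). Hist1h3b (-3.17, SE 0.46) and Hist1h2bj (-1.80, SE 0.26) had adjusted p of 0.0078 and 0.0084. Reads of these gene copies may be shared. In C57BL/6 early S cells, 47.2% and 50.5% had none of the G2/M genes of the rule, against 61.3% and 55.9% in Hivep3-/-, and the part of this in the values of these 4 genes was not tested. Without either Hivep3-/- library the calls of Hist1h2ae, Hist1h3b and Hist1h2bj were lost, and that of Hist1h3b also without C57BL/6 replicate 1. The other gene, Trbv5, is a variable segment of the T cell receptor β chain, with 9.29, 12.9, 13.95 and 35.9 CPM in early S cells and 36.0, 41.8, 13.6 and 12.9 CPM in G2/M cells (2.94, SE 0.35, adjusted p 0.0016), a call lost without Hivep3-/- replicate 2. From the fixed lists, Lig1 (-0.80), the proliferation antigen gene Mki67 (-1.19) and the thymidine kinase gene Tk1 (-1.03) were also called. Tk1 had 96.7 and 79.9 against 29.98 and 60.0 CPM in early S cells, and 171 and 185 against 166 and 203 CPM in G2/M cells.

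Against non-dividing cells, 533 of 11252 genes were called (4.74%), 309 higher (2.75%) and 224 lower (1.99%). DESeq2 called 212, and leaving out C57BL/6 replicate 1 gave 305 calls, C57BL/6 replicate 2 gave 909 and Hivep3-/- replicate 1 gave 342. Lgals3, which codes for galectin-3, had 659 and 512 CPM in C57BL/6 and 107 and 131 CPM in Hivep3-/- early S cells, but 353 and 265 against 164 and 257 CPM in non-dividing cells (-1.73, SE 0.11, adjusted p 5.6e-06). Gimap5, a GTPase of lymphocyte survival, had 31.2 and 61.6 against 101 and 138 CPM in early S cells, and 145 and 226 against 127 and 168 CPM in non-dividing cells (1.74, SE 0.12). The genotype difference was also more negative in early S than in non-dividing cells for Cd52 (-0.77, SE 0.05) and Bcl2a1d (-1.42, SE 0.11). The calls of Lgals3, Cd52, Gimap5 and Bcl2a1d held without each library. Lineage factors were called for 13 of 24 (54.2%), T cell receptor and signalling genes for 10 of 23 (43.5%), and replication genes for 1 of 36 (2.78%). The share of cells led by each marker list also differed between early S and non-dividing cells of each library, and its part in these differences was not tested.

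**Figure D5:**
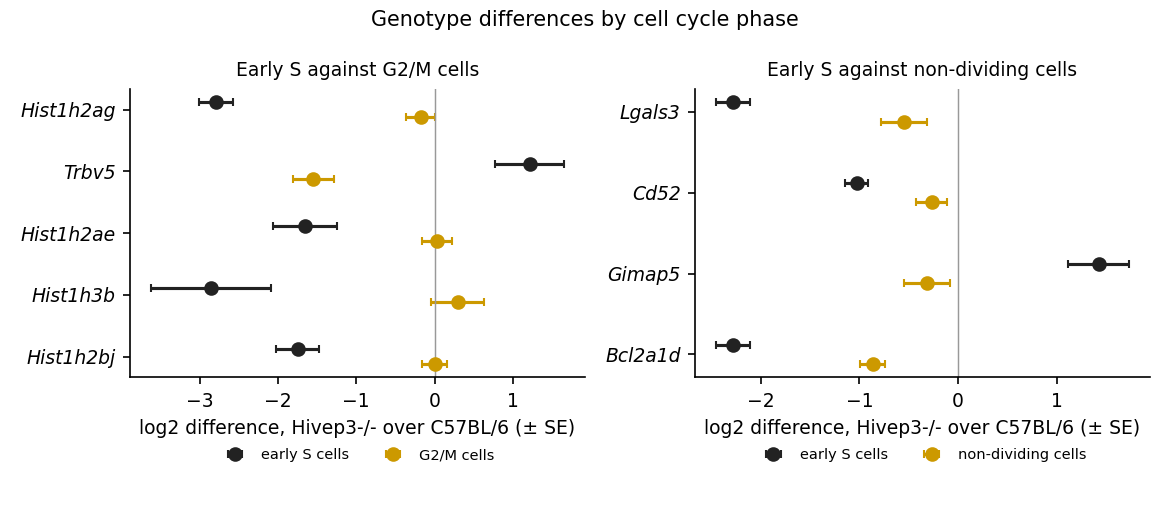
log2 difference between genotypes (points, with SE as lines, from separate fits) in early S cells and in the cells they were set against, for 5 genes (against G2/M) and 4 genes (against non-dividing cells) among the 5 of smallest interaction p. The 4 histone genes shown, picked by p, lay near 0 in G2/M cells and from -2.86 to -1.65 in early S cells, and Lgals3 was at -2.28 in early S cells and -0.55 in non-dividing cells.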

How the data were processed

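Thymic iNKT cells of 4 mice were profiled by droplet sequencing of 5' ends. The authors deposited UMI counts per gene and barcode, for which the submitters' processing notes name Cell Ranger 3.1.0 and Seurat 3.1.4. The gene identifiers matched mm10 (GENCODE vM21). The members and gene lists were chosen with earlier results of these data known. Cells with at least 500 and fewer than 4100 genes, at least 1000 UMIs and under 6% mitochondrial UMIs were kept. Scrublet's automatic threshold marked 10 cells, so removal of the 5% highest scores was tried as an alternative.

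Counts were summed per library and cell set (Python 3.11.15) and tested in R 4.3.3 with edgeR 4.0.16 (filterByExpr, TMM, quasi-likelihood test, Benjamini-Hochberg adjustment at 0.05), after the fits were tested on simulated data. Interactions had library as a block. Shares of cells were compared by two-sided exact permutation over libraries. The 16 rule genes stayed out of calls. Named genes were Hivep3, members of the fixed lists, the 10 largest rises and 10 largest falls among called genes of at least 20 CPM without overlap (receptor segments left out), the 5 genes of smallest p in each interaction, and the 10 highest genes over non-dividing cells. Counts cover all of these, and some single genes are not reported here. Alternatives were DESeq2 1.42.0 and its size factors, no filter on low counts, other depths and limits for choosing cells, a replicate block, and each library left out. Replicate numbers were taken as names and did not pair the mice in the main tests. The differences between replicates 1 and 2 correlated at 0.07 between genotypes over 9724 genes, which cannot exclude pairing.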

Additional observations from a re-analysis of the deposited data

Results flagged for a closer look

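The genotype difference in early S cells differed from that in G2/M cells for 18 genes and from that in non-dividing cells for 533 genes by the interaction test. Against G2/M cells, the differences of the log2 differences were -2.62 for Hist1h2ag, 2.94 for Trbv5, -1.61 for Hist1h2ae, -3.17 for Hist1h3b and -1.80 for Hist1h2bj. Against non-dividing cells they were -1.73 for Lgals3, -0.77 for Cd52, 1.74 for Gimap5 and -1.42 for Bcl2a1d. Early S cells were compared with other cells of the same 4 mice, and no cause was tested.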

How the results depend on the processing

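The difference in the share of early S cells changed sign with at least 4 S phase genes (0.61 percentage points), fewer than 2 G2/M genes (0.26) and no upper limit on genes (0.43), and ran from -1.11 to 0.85 with single libraries left out. That of the iNKT17 list ran from -1.98 to 0.23. The 222 genes between genotypes became 982 without the filter on low counts, 369 without the upper limit, 440 without cells led by the iNKT1 list, 619 with the replicate block (a number that did not pair the mice), 69 in cells led by the iNKT1 list (chosen after seeing the data), and 41 to 492 with single libraries left out. The 18 genes against G2/M cells became 6 with DESeq2 size factors, 2 with DESeq2, 128 without the filter and 3 to 92 with single libraries left out. The 533 against non-dividing cells became 212 with DESeq2, 958 without the filter and 305 to 909 with single libraries left out. In cells led by the iNKT1 list the sign turned for Slamf6 (-0.40), Cxcr6 (0.20) and Itm2a (-0.25). Xcl1 turned without those cells (-0.20) and in cells led by the stage 0 list (-0.077), where Gata3 was at 0.040. Tbx21 turned without the highest doublet scores (0.021), and ran from -0.70 to 0.39 with single libraries left out. The cause was not tested. Shallow cells limit the detection of S phase genes, and 2 mice per genotype limit every test.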
